A study of Mus musculus with 16 samples.

Results

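Chromatin accessibility was described here at 5 microRNA genes with known roles in blood cells: Mir223, Mir155, Mir142, Mir146 and Mir196b. Open regions were obtained by merging the peaks of all 16 peak lists wherever they shared at least 1 bp, and every merged region that touched the interval from 20 kb before to 20 kb after a microRNA gene was taken. This gave 66 regions of 296215 in the whole series, namely 11 around Mir223, 8 around Mir155, 14 around Mir142, 14 around Mir146 and 19 around Mir196b. The lists come from ATAC-seq, in which the Tn5 transposase cuts DNA that nucleosomes leave open, performed on mouse hematopoietic stem and progenitor cells (HSPCs). There were 4 genotypes with 4 libraries each. All mice were C57BL/6, carried the floxed Ep300 fl/fl alleles and received 3 doses of poly(I:C) at 6 to 8 weeks of age. WT mice had no Cre and intact Tet2, P300KO mice were Mx1-Cre;Ep300 fl/fl, TET2KO mice were Ep300 fl/fl;Tet2-/-, and P300KO_TET2KO mice were Mx1-Cre;Ep300 fl/fl;Tet2-/-. Mx1-Cre is driven by an interferon-responsive promoter that is not restricted to blood cells, and the Tet2 deletion was germline. Each library pooled cells of 2 mice of 1 genotype. The study used male and female mice, and sex was not part of any comparison here. The study's methods place experiments 2 weeks after poly(I:C) unless another time is named, and none is named for these libraries. The genotypes were taken from the labels because peak lists do not count reads over the deleted exons.

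The lists fell into 2 deposit sets. Replicates 1 and 2 of each genotype (set 1) held 86039 to 110055 peaks per library, and replicates 3 and 4 (set 2) held 130610 to 137335. WT replicates 1 and 2 stood apart, with 34651 and 26306 regions that no other library had, against 1306 to 12244 in the other libraries. Promoter peaks were found in all 16 libraries for 7 of 8 stem and progenitor genes, and Ly6a had one in 15. Among markers of mature cells, the B cell promoter of Ms4a1 and the granulocyte promoter of Ly6g had no peak in any library, whereas Itgam, Lck and Hbb-bs had one in all 16. The methods state that the HSPCs were sorted from bone marrow before freezing, and the part of other cells in the results was not tested. The methods give a minimum read number aimed for per library, but the peak lists give no read counts, so the depth reached in each library is unknown here.

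MicroRNAs are cut from longer primary transcripts by Drosha with Dgcr8, exported by Xpo5, trimmed by Dicer1 and Tarbp2, and loaded onto Argonaute proteins such as Ago2, after which bases 2 to 8 of the mature strand, the seed, select target messages. p300, encoded by Ep300, is a histone acetyltransferase and transcriptional coactivator found at active enhancers, and Tet2 oxidizes methylated cytosine. In blood, miR-142 is made in nearly all lineages, miR-223 is a myeloid microRNA, miR-155 accompanies lymphocyte activation and inflammation, miR-146a is induced by NF-kB signalling and dampens it, and miR-196b lies inside the Hoxa cluster that marks stem cells and many leukemias. The mature sequences follow, as what each locus finally produces. The seed is in capitals.

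The 10 mature strands of the 5 hairpins, from RefSeq on GRCm38.p6, carried 10 different seeds, and the 5 hairpins lay at the same bases as in the GENCODE annotation.
mmu-miR-223-5p: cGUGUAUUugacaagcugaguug
mmu-miR-223-3p: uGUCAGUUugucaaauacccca
mmu-miR-155-5p: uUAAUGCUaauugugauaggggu
mmu-miR-155-3p: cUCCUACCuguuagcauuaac
mmu-miR-142a-5p: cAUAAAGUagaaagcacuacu
mmu-miR-142a-3p: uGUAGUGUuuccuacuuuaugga
mmu-miR-146a-5p: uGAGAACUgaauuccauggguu
mmu-miR-146a-3p: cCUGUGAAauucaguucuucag
mmu-miR-196b-5p: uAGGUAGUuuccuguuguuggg
mmu-miR-196b-3p: uCGACAGCacgacacugccuuc

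No seed was shared within the group. Of the 1738 mature entries in the table, the seed of miR-146a-5p was found in 1 further microRNA, miR-146b-5p, and that of miR-196b-5p in 1 further microRNA, miR-196a-5p. The other 8 seeds were found in no other microRNA gene.

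Each hairpin lies inside or behind a longer transcription unit, except Mir146, for which GENCODE gives no host. Mir223 lies at chrX:96242817-96242926 on the plus strand, and its host F630028O10Rik, a noncoding RNA, starts 2891 bp upstream. Mir155 lies at chr16:84714140-84714204 on the plus strand, in the lincRNA Mir155hg that starts 10973 bp upstream. Mir142 lies at chr11:87756864-87756927 on the plus strand, in the lincRNA Mir142hg that starts 1287 bp upstream. Mir146 lies at chr11:43374397-43374461 on the minus strand. Mir196b lies at chr6:52230081-52230165 on the minus strand, within the annotated span of Hoxa9, whose first start is 924 bp upstream. All coordinates are on mm10. Regions are numbered along the chromosome within each window, and distances are from the hairpin to the centre of a region, with negative values upstream on the strand of the microRNA.

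Of the 66 regions, 23 (34.8%) had a peak in all 16 libraries, 27 had one in 2 to 15 libraries and 16 (24.2%) in 1 library. Over the whole series, 13.3% of regions had a peak in all 16 libraries and 45.6% in 1. The windows differed. Mir142 and Mir196b had 7 of 14 and 10 of 19 regions in all 16 libraries, whereas Mir223, Mir155 and Mir146 each had 2. Of the 43 regions within 3 kb of a transcription start, 18 were in all 16 libraries, and of the 23 farther away, 5 were. Against the windows of all 1843 annotated microRNA genes with a peak, of which the median held 3.19 regions per library, Mir196b with 15.2 and Mir142 with 9.88 regions had more than 99.9% and 98.5% of windows. Mir223 with 4.62, Mir146 with 4.38 and Mir155 with 3.5 regions lay nearer the middle, above 66.5%, 64.0% and 53.4%.

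**Figure D1:**
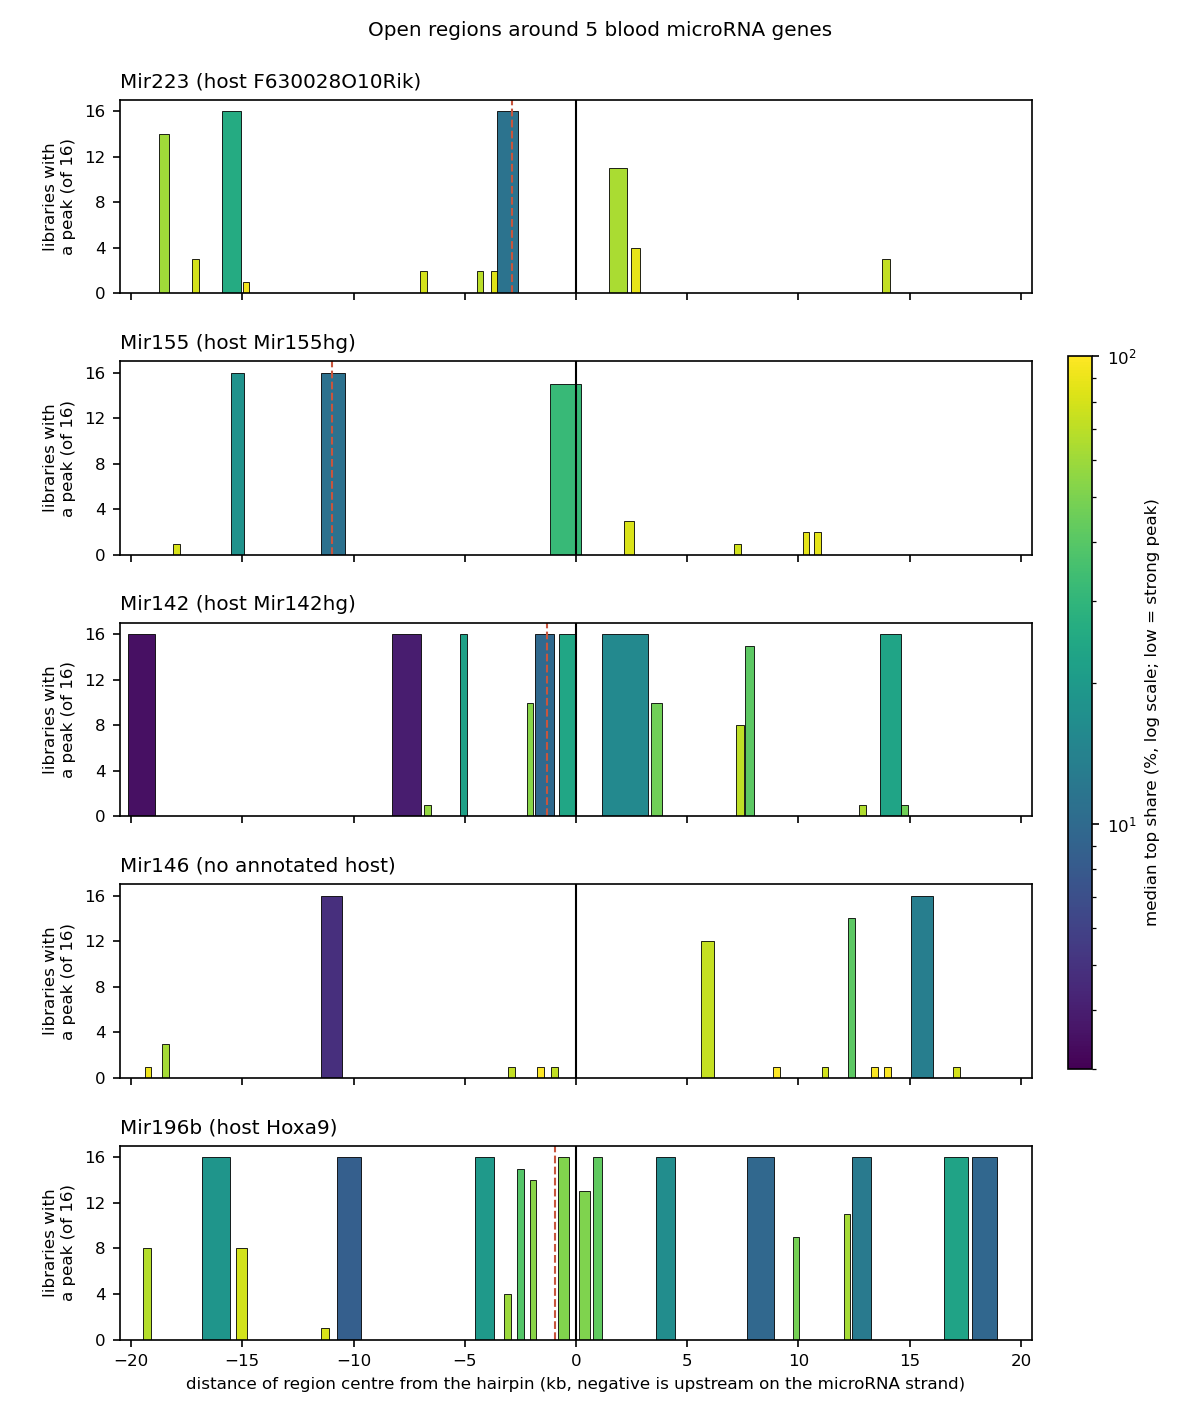
Merged regions around the 5 microRNA genes, by distance of the region centre from the hairpin in kb (horizontal axis) and number of libraries with a peak, of 16 (vertical axis). Bar width is the region width (at least 0.3 kb as drawn), colour is the median top share on a log scale, the solid line is the hairpin and the dashed line the host start. Mir142 and Mir196b hold 7 and 10 bars of full height, the other windows 2 each.

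The strength of a peak was read only within its own list. The peaks of a library were ranked by the deposited −log10 p, and the top share is the rank as a percent of the list length, so a small top share is a strong peak. In all 16 libraries, 21 of the 66 regions were among the strongest 50000 peaks (31.8%, against 9.52% of all regions), 2 were in the strongest 10% (3.03%, against 2.37% of all regions) and none was in the strongest 1% (against 0.0655%). Those 2 lay in the Mir142 window: region 1, over the start of Supt4a, a transcription elongation factor gene, with a median top share of 3.47%, and region 2, at -7622 bp, with 3.98%.

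The host starts of Mir223, Mir155 and Mir142 had peaks in all 16 libraries. Mir223 region 8, which covered the F630028O10Rik start, had top shares of 8.66% to 14.1% in the 16 libraries, with a median of 11.4%. Mir155 region 3, over the Mir155hg start, ran from 8.10% to 21% with a median of 11.1%. Mir142 region 6, over the Mir142hg start, ran from 8.24% to 13.4% with a median of 9.84%. These were the strongest regions of the Mir223 and Mir155 windows, and their lowest and highest libraries differed by 1.63, 2.59 and 1.63 times. In the Mir196b window the region at the Hoxa9 start, region 10, was weak, with a median top share of 51.6% and a range of 37.4% to 99.2%. The strongest there was region 15 over a start of Hoxa10, a neighbouring homeobox gene, with a median of 8.57%.

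At the hairpins, peaks were found in fewer libraries or ranked lower than at the host starts of Mir223, Mir155 and Mir142. Mir155 region 4, which contained the hairpin, was found in 15 libraries, all but WT replicate 1, with a median top share of 31.8%. Mir142 region 7 ended 44 bp before its hairpin, was in all 16 libraries and had a median of 24.0%. The region nearest Mir196b, region 9, ended 32 bp from the hairpin and was in 13 libraries, and that nearest Mir223, region 9 at 1881 bp, was in 11. The nearest region to Mir146, region 9 at -958 bp, was found in WT replicate 1 alone. The open chromatin of the Mir146 window that all 16 libraries shared lay farther out. Region 12, at -10996 bp over the start of the lincRNA Gm12148, had a median top share of 4.8%, and region 2, 15544 bp downstream of the hairpin, had 13.3%.

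The windows of 201 bases around the median peak summit are shown for the regions that the comparisons turn on: those over the host starts of Mir223, Mir155 and Mir142, the lost region next to the Mir142 host start, both regions of the Mir146 window found in all 16 libraries, and the distal Mir155 region. They are plus strand sequence of GRCm38.p6, the assembly of mm10, with matches to the searched motifs in capitals. The Mir142 window contains the host start itself, whereas the Mir223 window ends just before it and the Mir155 window begins just after it.
Mir223 region 8, chrX:96239684-96239884: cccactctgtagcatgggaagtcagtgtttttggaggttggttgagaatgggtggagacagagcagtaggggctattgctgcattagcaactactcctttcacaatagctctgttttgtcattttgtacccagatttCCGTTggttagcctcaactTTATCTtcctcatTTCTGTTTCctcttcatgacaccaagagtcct
Mir155 region 2, chr16:84698838-84699038: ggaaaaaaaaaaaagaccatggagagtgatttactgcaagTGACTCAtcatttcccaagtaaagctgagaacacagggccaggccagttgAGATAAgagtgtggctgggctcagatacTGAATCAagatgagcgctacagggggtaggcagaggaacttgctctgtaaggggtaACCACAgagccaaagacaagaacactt
Mir155 region 3, chr16:84703231-84703431: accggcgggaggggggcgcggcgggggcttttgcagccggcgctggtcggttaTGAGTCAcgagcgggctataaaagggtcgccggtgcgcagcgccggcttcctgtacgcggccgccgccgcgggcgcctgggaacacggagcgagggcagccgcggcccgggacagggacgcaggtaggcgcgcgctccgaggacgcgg
Mir142 region 5, chr11:87754684-87754884: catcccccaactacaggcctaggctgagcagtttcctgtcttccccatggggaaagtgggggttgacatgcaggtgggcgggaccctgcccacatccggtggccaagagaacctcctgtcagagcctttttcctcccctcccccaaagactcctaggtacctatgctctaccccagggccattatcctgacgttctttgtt
Mir142 region 6, chr11:87755400-87755600: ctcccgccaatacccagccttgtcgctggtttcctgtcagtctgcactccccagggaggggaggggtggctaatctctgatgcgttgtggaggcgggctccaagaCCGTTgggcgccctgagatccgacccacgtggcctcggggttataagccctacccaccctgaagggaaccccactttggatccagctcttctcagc
Mir146 region 2, chr11:43358872-43359072: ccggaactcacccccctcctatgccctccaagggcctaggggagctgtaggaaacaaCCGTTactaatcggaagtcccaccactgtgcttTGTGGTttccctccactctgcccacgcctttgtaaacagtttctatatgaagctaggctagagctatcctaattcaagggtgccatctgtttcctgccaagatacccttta
Mir146 region 12, chr11:43385423-43385623: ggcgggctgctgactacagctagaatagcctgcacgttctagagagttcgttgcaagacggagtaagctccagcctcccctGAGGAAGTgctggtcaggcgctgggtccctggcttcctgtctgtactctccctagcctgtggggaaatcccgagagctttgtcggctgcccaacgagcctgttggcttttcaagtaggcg

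8 motifs were searched on both strands, and no matches shared bases in the 66 windows. The letters were GAGGAAGT for Ets factors, AGATAA for Gata, TTGCNNAA for Cebp, TGTGGT for Runx, GGANTTTCC for NFkB, TGANTCA for Ap1, GAAANNGAA for Irf and AACGG for Myb. The Mir146 region 2 window held 1 Runx and 1 Myb match, and Mir146 region 12 held 1 Ets match. Of the windows in the host start regions, that of Mir223 held 1 Gata, 1 Irf and 1 Myb match, the Mir155 window 1 Ap1 match and the Mir142 window 1 Myb match, and the distal Mir155 region 2 held 2 Ap1, 1 Gata and 1 Runx match. The lost Mir142 region 5 held none of the 8.

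Among the 23 member windows in all 16 libraries, 6 held Gata (26.1%), 5 Runx (21.7%), 4 Irf (17.4%), 3 Ap1 (13%), 3 Myb (13%), 2 Ets (8.7%), 2 Cebp (8.7%) and 0 NFkB. Of the 39310 windows of the same length at all regions found in 16 libraries, Gata was in 7.44%, Runx in 21.9%, Irf in 6.3%, Ap1 in 7.15%, Myb in 12.9%, Ets in 7.56%, Cebp in 7.86% and NFkB in 0.916%. The GC content of the windows printed here ran from 44.8% in Mir223 region 8 to 76.1% in Mir155 region 3, beside a median of 54.7% over all such windows. A match is a description of letters and not a bound site, and other forms of these motifs were not searched.

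The first comparison asked whether the number of open regions at a locus differed by genotype. At Mir223, WT libraries held 2, 3, 5 and 5 regions, P300KO libraries 5, 2, 5 and 4, TET2KO libraries 6, 3, 6 and 6, and P300KO_TET2KO libraries 4, 6, 6 and 6. The means were 3.75 ± 1.5, 4.0 ± 1.41, 5.25 ± 1.5 and 5.5 ± 1.0 regions (SD, n = 4 libraries each), and the genotypes overlapped. Averaged over both p300 states, Tet2 loss went with 1.5 more regions at Mir223, with p = 0.0262 in the exact permutation test within deposit set and an adjusted p of 1.0 over 1843 microRNA windows. Mir223 lies on the X chromosome, and the sex of the pooled mice was not part of the test.

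At Mir142 WT averaged 9.75 ± 0.5 regions, P300KO 9.25 ± 0.5, TET2KO 10 ± 0.816 and P300KO_TET2KO 10.5 ± 0.577 (SD, n = 4). At Mir196b they were 14.5 ± 2.38, 15.2 ± 1.71, 15 ± 1.63 and 16 ± 0.816 in the same order, and at Mir155 3.75 ± 0.957, 3.25 ± 0.5, 3.75 ± 0.957 and 3.25 ± 0.5. The Mir146 window held 5.5 ± 2.52, 4.0 ± 0.816, 3.75 ± 0.5 and 4.25 ± 0.5 regions. The wide spread in WT included replicate 1 with 9 regions, of which 6 were found in no other library.

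None of the 5 loci passed at an adjusted p under 0.05 for P300KO_TET2KO against TET2KO, p300 loss over both Tet2 backgrounds or Tet2 loss over both p300 backgrounds. The same tests called 0% of the 1726 or 1843 microRNA windows tested, while 10, 60 and 51 windows in that order had an unadjusted p under 0.05 in the exact permutation test, with Mir223 for Tet2 loss as the only member among them. For P300KO_TET2KO against TET2KO the differences were 0.25 regions at Mir223, -0.5 at Mir155, 0.5 at Mir142, 0.5 at Mir146 and 1.0 at Mir196b. The smallest p that 70 regroupings allow is 0.0286 and that of the arrangements within deposit set is 0.00154, so a single window could not pass the adjustment.

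**Figure D2:**
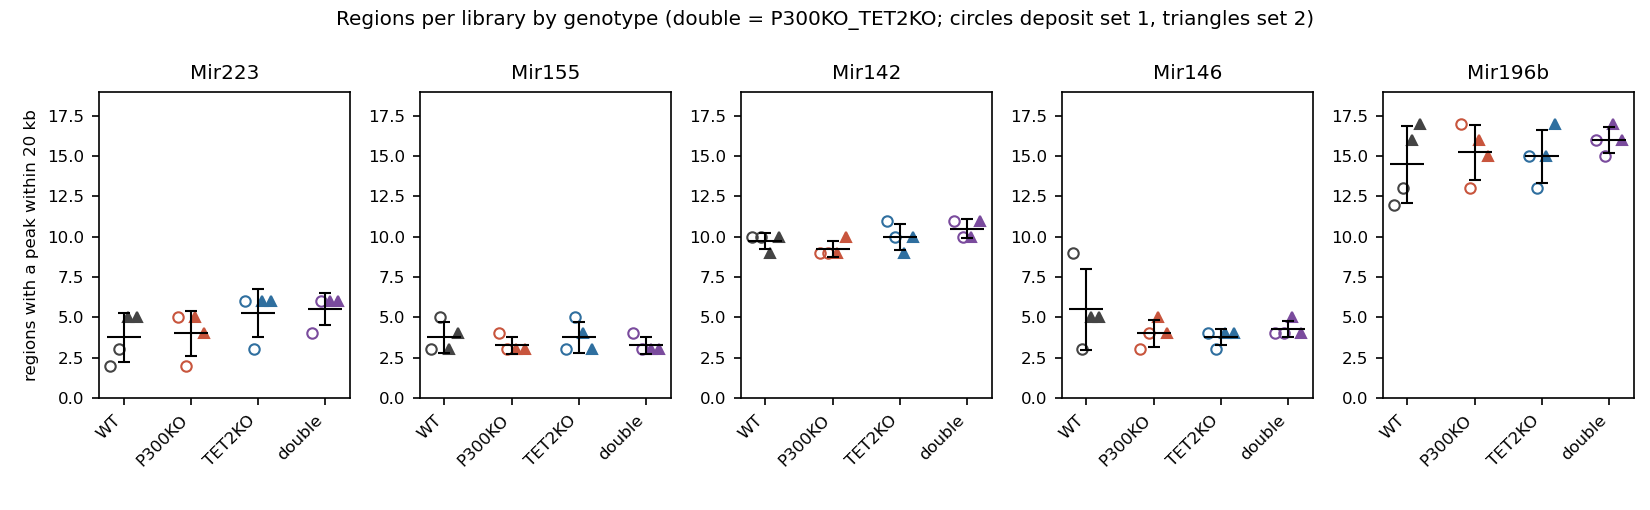
Number of regions with a peak in each library (vertical axis) at the 5 microRNA windows, by genotype, with the mean and SD of 4 libraries in black. Open circles are deposit set 1 and filled triangles set 2, and the genotypes overlap at every locus.

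The second comparison asked which regions were gained or lost with a genotype, where a gain needs peaks in all 4 libraries of the first genotype and in 0 of 4 of the second, and a loss is the reverse. In P300KO against WT, 1 of 61 member regions was lost and 0 gained, where 0.0122% of 254051 regions were lost and 0.0154% gained. A region found in 1 library cannot meet this rule or the looser one below. Such regions were 45.6% of all regions and 24.2% of member regions, so the shares of all regions are not like for like. No member region was gained or lost in the other contrasts. P300KO_TET2KO against TET2KO gained 0.0938% and lost 0.0201% of 188698 regions, TET2KO against WT gained 0.017% and lost 0.00849% of 247317, and P300KO_TET2KO against P300KO gained 0.0994% and lost 0.0469% of 194183.

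The lost region was Mir142 region 5, chr11:87754678-87754913, 664 bp before the Mir142hg start and 90 bp from region 6, which covers that start. It had a peak in all 4 WT libraries, with top shares of 30.7%, 51.7%, 50.9% and 47.3%, and in no P300KO library. It was found in 3 TET2KO libraries, at 54.9%, 61.4% and 59.4%, and 3 P300KO_TET2KO libraries, at 52.5%, 63.2% and 65.3%. All 10 peaks were weak, with a fold enrichment of 1.77 to 2.24 and widths of 155 to 234 bp, and the loss was not called among the strongest 50000 peaks. In top share every WT peak ranked above every peak of the other genotypes, at the closest 51.7% against 52.5%. In rank not divided by list length they overlapped, with 30228 to 66717 in WT, 50481 to 78474 in TET2KO and 51733 to 85267 in P300KO_TET2KO. The share of all regions ordered in this way was not computed. The neighbouring region 6 was in all 16 libraries, with top shares of 9.30%, 8.25%, 8.24% and 9.29% in WT and 9.46%, 8.40%, 8.36% and 11.1% in P300KO, which overlap.

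Under a looser definition, a peak in at least 3 of 4 libraries against at most 1 of 4, 3 member regions were called in P300KO against WT, where 1.56% of all regions were: Mir142 regions 5 (lost) and 9 (gained) and Mir196b region 17 (lost). TET2KO against WT called 2, the gained Mir223 region 10 and Mir142 region 9, where 1.44% of all regions were called. P300KO_TET2KO against TET2KO called 2, the lost Mir223 region 10 and the gained Mir196b region 19 (2.68% of all regions), and P300KO_TET2KO against P300KO called 1, the gained Mir142 region 5 (2.58%). Mir223 region 10, 2672 bp downstream of the hairpin, had 3 TET2KO peaks and 1 P300KO_TET2KO peak, all at top shares of 78.8% or higher. Contrasts that share a genotype are not independent of each other.

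**Figure D3:**
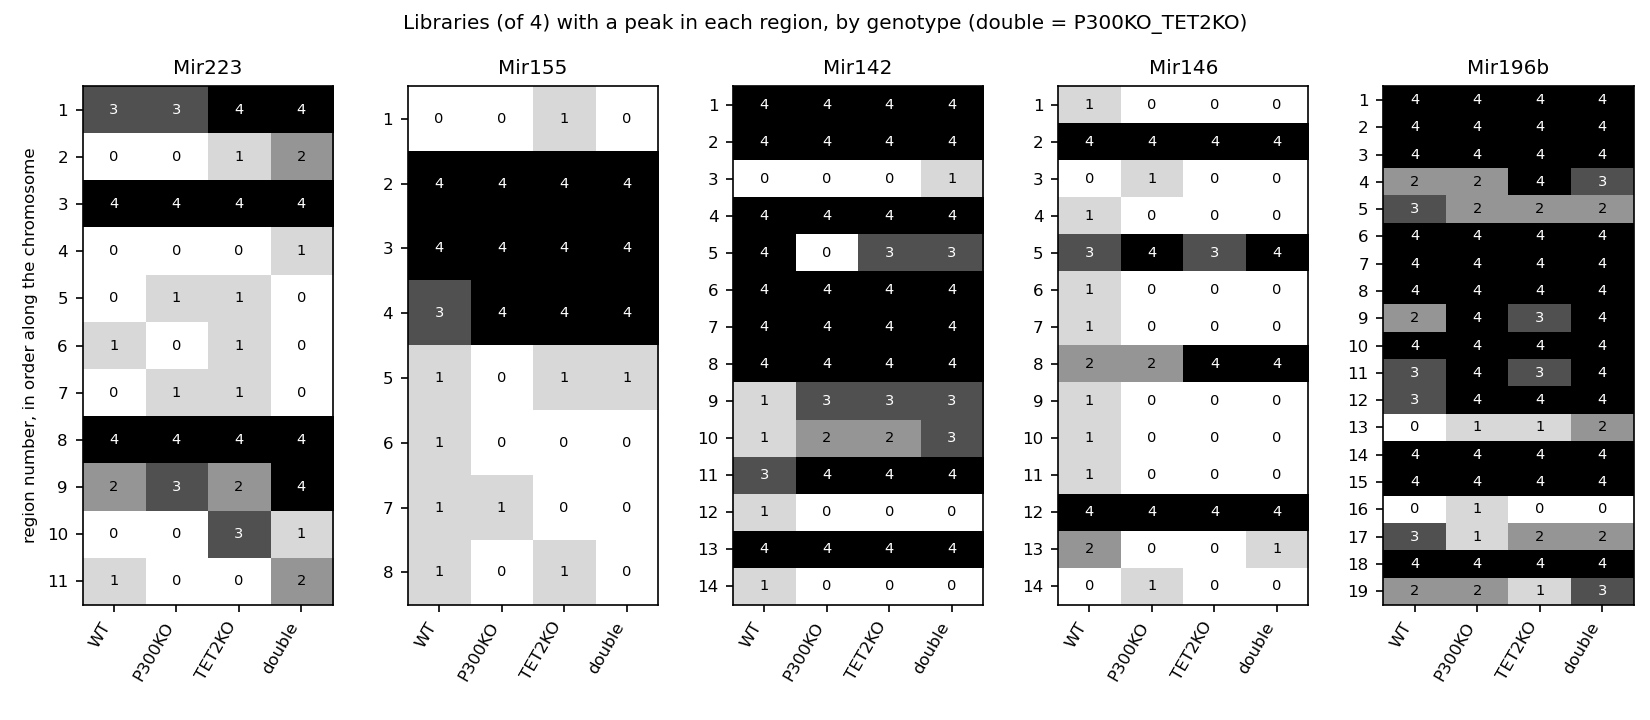
Number of libraries, of 4, with a peak in each numbered region (rows) for each genotype (columns) at the 5 windows. Mir142 region 5 goes from 4 in WT to 0 in P300KO, and is 3 in both Tet2-/- genotypes.

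The third comparison asked whether the rank of a region within the lists moved with genotype. It was fitted with limma to log2 of list length over rank for all 39310 regions found in every library, with deposit set as a covariate, so a difference of -1 means that the top share doubled. Of the 23 member regions, 1 fell and 0 rose for p300 loss averaged over both Tet2 backgrounds, where 2.34% of all regions were called, 264 up and 655 down. The same region was the only one of the 23 called in P300KO against WT, where 0.951% of all regions were called. With the replicate number as a block, that contrast called 218 regions in place of 374, the member region included. No member was called in P300KO_TET2KO against TET2KO (0.0178% of all regions), TET2KO against WT (0.056%), P300KO_TET2KO against P300KO (0.142%), Tet2 loss over both p300 backgrounds (0.791%) or the interaction of p300 and Tet2 loss (0% of all regions, with 1971 at an unadjusted p under 0.05 in limma).

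The region that fell was Mir146 region 2, chr11:43358432-43359402, 15544 bp downstream of Mir146 and overlapping no annotated gene. Its WT top shares were 7.76%, 11.3%, 5.18% and 6.36%, and its P300KO ones 35%, 32%, 9.93% and 13.6%. Those of TET2KO were 24.5%, 14.7%, 5.05% and 7.05%, and those of P300KO_TET2KO 23.3%, 25.4%, 13.1% and 13.9%, in the order of replicates 1 to 4. Set 1 libraries (replicates 1 and 2) ranked the region lower than set 2 libraries in every genotype, with medians of 23.9% and 8.49%. Within each set, both P300KO libraries lay below both WT libraries in rank. P300KO_TET2KO lay below TET2KO without overlap in set 2, and overlapped it in set 1. A set holds only 2 libraries per genotype, and the share of all regions separated in this way was not computed.

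The limma difference for p300 loss over both backgrounds was -1.10 (SE 0.154, adjusted p = 0.000444), which is a 2.14-fold larger top share. Only 42 of the 39310 regions had a lower value. P300KO against WT gave -1.43 (SE 0.218, adjusted p = 0.00343 in limma), a 2.69-fold larger top share, with differences of -1.84 in set 1 and -1.02 in set 2. P300KO_TET2KO against TET2KO gave -0.77 (SE 0.218, adjusted p = 0.28 in limma), with -0.36 in set 1 and -1.18 in set 2. TET2KO against WT gave -0.54 (adjusted p = 0.419) and the interaction 0.66 (SE 0.308, adjusted p = 0.94), so a difference between the 2 backgrounds was not shown.

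The exact test could call no region. In the exact permutation test within deposit set and Tet2 state, p300 loss gave p = 0.00309 for this region, where 0.00154 is the smallest possible, and an adjusted p of 0.099 over 39310 regions. In the same exact test Mir196b region 10 reached the smallest p (0.00154, adjusted p = 0.0829) with a difference of -0.29, and Mir196b region 3 had the same p as Mir146 region 2 with a difference of -0.23. Since even the smallest p had an adjusted p above 0.05, 0 of 39310 regions were called and 6281 had an unadjusted p under 0.05. Without the deposit set covariate the limma adjusted p was 0.472, and 0 of 39310 regions were called, with 2301 at an unadjusted p under 0.05. The call of P300KO against WT was also lost without the covariate (adjusted p = 0.842), by percentile points (0.0826), by fold enrichment (0.0704) and in set 1 alone (0.289), and an exact permutation test of it over 70 regroupings gave p = 0.0571. Without WT replicate 1 or WT replicate 2, the libraries that stood apart, the p300 loss difference was -1.005 or -1.10 and was called in limma both times (adjusted p = 0.000136 and 0.000619). The summits of its peaks lay 15398 to 15477 bp from the hairpin in the 16 libraries, and fold enrichment over local background ran from 6.77 to 21.7 over WT libraries, 4.87 to 18.9 over P300KO, 7.79 to 20.02 over TET2KO and 11.7 to 23.3 over P300KO_TET2KO. In fold enrichment these ranges overlapped, and the low values of each genotype were in set 1. P300KO libraries lay below WT within each set, whereas P300KO_TET2KO had 11.7 and 13.04 against 7.79 and 10.6 in TET2KO in set 1, the opposite direction to the rank difference, and 23.3 and 18.6 against 20.02 and 19.8 in set 2, which overlap.

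The other shared region of this window did not pass. Mir146 region 12, over the Gm12148 start, had top shares of 11.5%, 6.91%, 4.34% and 3.27% in WT and 9.31%, 12%, 3.76% and 3.27% in P300KO. Its TET2KO values were 5.26%, 8.76%, 3.30% and 3.58%, and its P300KO_TET2KO values 6.10%, 5.53%, 3.04% and 3.77%. The 4 genotypes overlapped, and the limma difference for p300 loss was 0.03 (SE 0.151, adjusted p = 0.959).

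**Figure D4:**
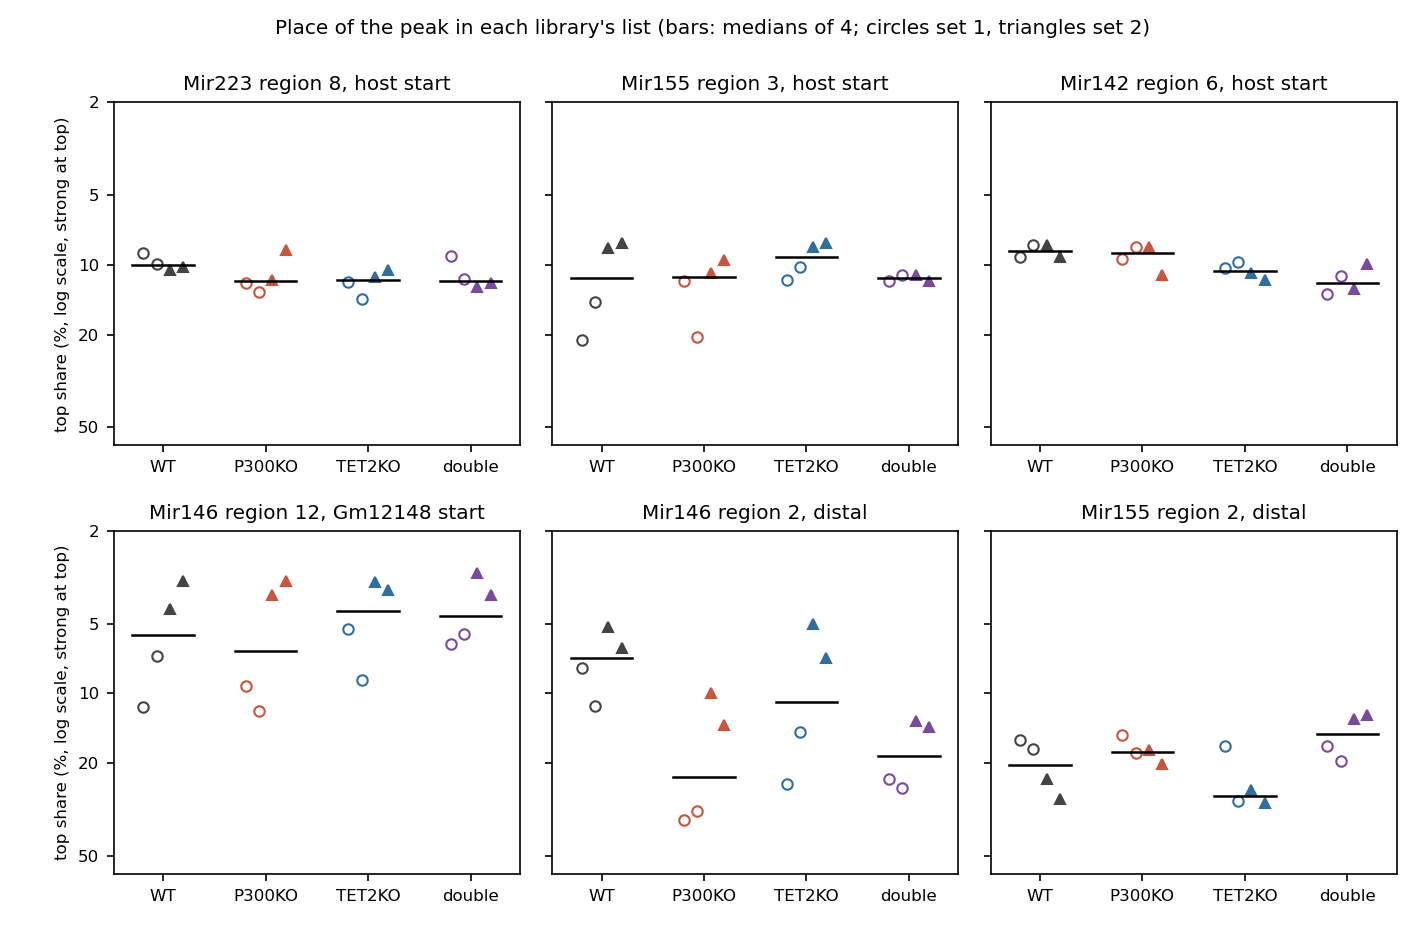
Top share of the peak in each library (vertical axis, percent, log scale, strong peaks at the top) by genotype for 6 regions. Bars are medians of 4 libraries, open circles deposit set 1 and filled triangles set 2. Mir146 region 2 spans 9.93% to 35% in P300KO and 5.18% to 11.3% in WT, which overlap over both sets and do not overlap within either set. WT and P300KO overlap at the 3 host starts, while WT lies above both Tet2-/- genotypes at Mir142 region 6 and above TET2KO at Mir223 region 8. Neither of these host starts was called in limma with all libraries, and the share of all regions that separate in these ways was not computed.

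Next in size was Mir155 region 2, chr16:84698645-84699203, at -15216 bp from Mir155 and 3964 bp before the Mir155hg start. WT top shares were 15.8%, 17.3%, 23.4% and 28.4%, and P300KO ones 15.1%, 18.1%, 17.5% and 20.1%. TET2KO had 16.9%, 29.0%, 26.1% and 29.6%, and P300KO_TET2KO 16.9%, 19.6%, 12.9% and 12.3%. It ranked higher without p300 in set 2, where neither pair of genotypes overlapped, and overlapped in set 1. Each genotype has only 2 libraries in a set, and the share of all regions separated in this way was not computed. The limma difference for p300 loss was 0.47 (SE 0.147, adjusted p = 0.0937) and that of P300KO_TET2KO against TET2KO 0.71 (SE 0.208, adjusted p = 0.298), and neither passed. The p300 loss difference passed in limma without WT replicate 1 (0.53, adjusted p = 0.0306), without TET2KO replicate 1 (0.56, adjusted p = 0.0431), among the strongest 50000 peaks (0.49, adjusted p = 0.0498) and in set 2 alone (0.80, adjusted p = 0.000337). The difference of P300KO_TET2KO against TET2KO passed in set 2 alone (1.14, adjusted p = 0.00114 in limma), where 218 regions were called up and 441 down.

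With all libraries, the host starts did not pass in any contrast. The p300 loss differences were -0.05 (SE 0.116) at Mir223 region 8, -0.17 (SE 0.143) at Mir155 region 3 and -0.11 (SE 0.109) at Mir142 region 6, with limma adjusted p from 0.621 to 0.888. In deposit set 2 alone, where limma called 1127 regions up and 1847 down for p300 loss, the Mir155hg start fell by 0.38 (adjusted p = 0.0499). For Tet2 loss they were -0.14, 0.24 and -0.31 in that order. In top share the Mir142hg start had 10.4%, 9.79%, 10.9% and 11.7% in TET2KO and 13.4%, 11.1%, 12.7% and 9.89% in P300KO_TET2KO, all above the highest WT value of 9.30% given above. At the Mir223 host start WT spanned 8.94% to 10.5% and TET2KO 10.58% to 14.1%, without overlap. There P300KO_TET2KO spanned 9.18% to 12.5% and overlapped WT. For TET2KO against WT the limma adjusted p was 0.537 at the Mir142hg start and 0.589 at the Mir223 host start. The share of all regions that separate by genotype in this way was not computed. The Tet2 loss difference at the Mir142hg start had an adjusted p of 0.223 in limma, the lowest of the 23 regions in that contrast. In the Mir142 window the region next to the hairpin, region 7, differed by 0.28 (SE 0.121, adjusted p = 0.245) for p300 loss, and by 0.49 in set 2 alone (adjusted p = 0.0263 in limma). Mir223 region 3, at -15493 bp, also passed in set 2 alone (0.45, adjusted p = 0.0167 in limma). The median of the 23 members and that of all regions were close. For p300 loss they were -0.03 and -0.006, and for Tet2 loss -0.01 and -0.002.

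**Figure D5:**
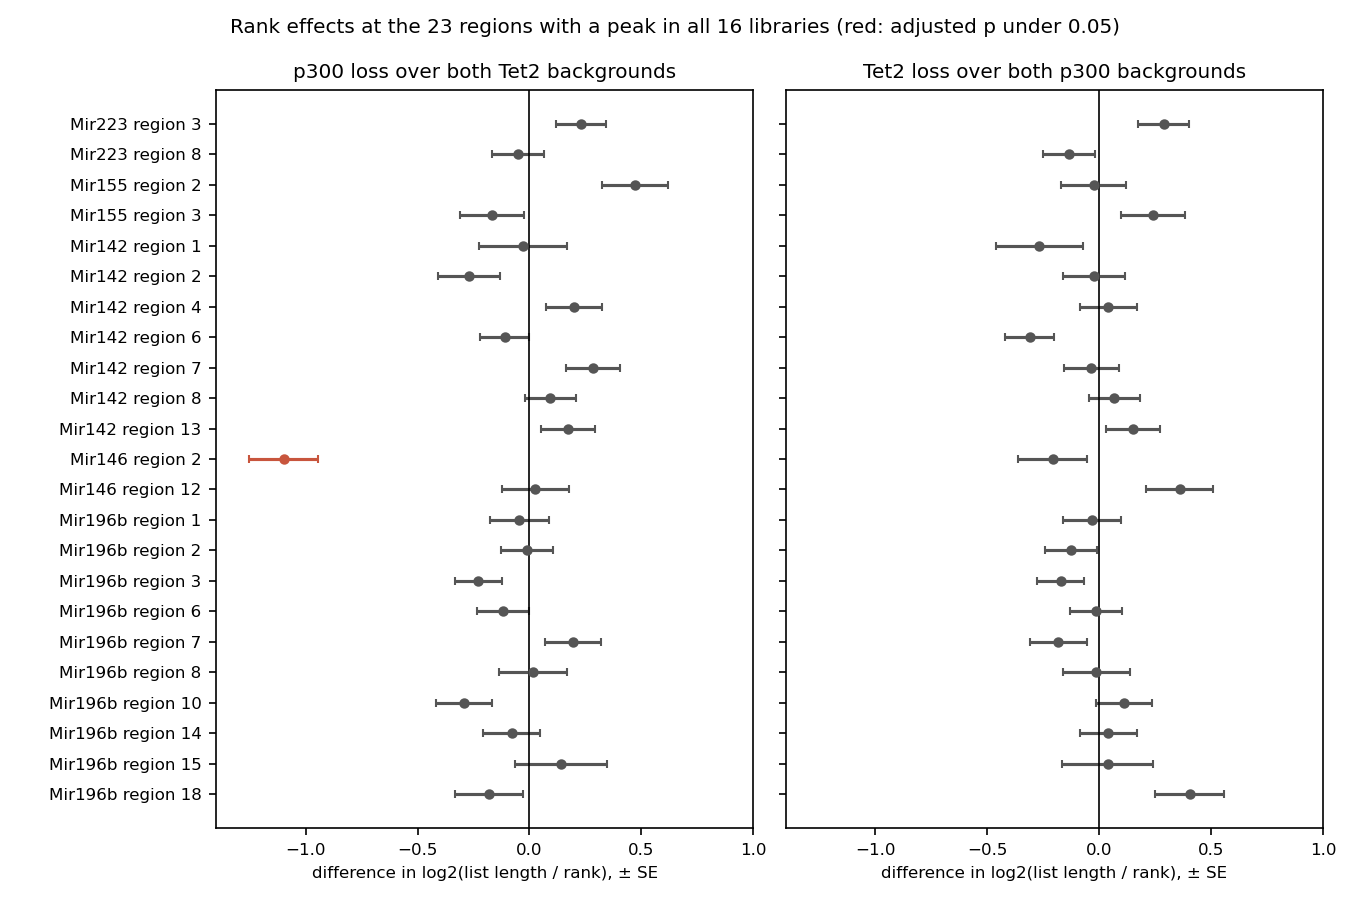
Difference in log2 of list length over rank (horizontal axis, points with SE) for p300 loss (left) and Tet2 loss (right) at the 23 member regions found in all 16 libraries. The red point, Mir146 region 2 at -1.10, is the only one past an adjusted p of 0.05, and the others lie between -0.29 and 0.47 for p300 loss.

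The Mir196b window lies in the Hoxa cluster, and its regions are also those of the Hox genes. Of its 10 regions found in all 16 libraries, none was called. The Hoxa9 start region 10 had top shares of 63.9%, 51.9%, 46.3% and 42.2% in WT and 64.3%, 99.2%, 51.0% and 51.3% in P300KO, and its p300 loss difference was -0.29 (SE 0.127, adjusted p = 0.252 in limma). The Hoxa10 start region 15 ran from 5.32% to 21.5%, both extremes in WT, with a p300 loss difference of 0.14 (SE 0.204, adjusted p = 0.799 in limma).

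The windows of 25 other blood microRNA genes all held a region in at least 1 library, with 0.0625 (Mir99a) to 9.31 (Mir23a) regions per library and a median of 4.94. None passed at an adjusted p under 0.05. The unadjusted exact permutation p was under 0.05 for Mir15a (2.12 more regions with p300 loss, p = 0.00463), Mir221 (p300 loss, p = 0.0417), Mir106a (Tet2 loss, p = 0.0278) and Mir23a (P300KO_TET2KO against TET2KO, p = 0.0286). Mir221 and Mir106a lie on the X chromosome, as Mir223 does. For p300 loss 13 had more regions and 10 fewer, where 42.3% of all 1843 windows had more and 47.6% fewer. For Tet2 loss 18 had more and 6 fewer, where 45.6% of all windows had more and 42.5% fewer. Neighbouring genes share regions, and Mir144 and Mir451a had the same counts, as did Mir181a-1 and Mir181b-1. Mir146b, which shares the miR-146a seed, averaged 7.0 regions per WT library, 7.5 per P300KO, 6.5 per TET2KO and 8.0 per P300KO_TET2KO library. The promoters of the 6 processing genes had a peak in all 16 libraries, with median top shares from 0.768% for Dgcr8 to 5.68% for Xpo5, stronger than the median top share of every microRNA host start given here.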

How the data were processed

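ATAC-seq was performed by the authors on cryopreserved HSPCs, 50000 viable cells per library. Per the labels and methods, reads were trimmed (cutadapt 1.9.1), aligned to mm10 (Bowtie2 2.2.6), deduplicated and shifted for the Tn5 cut, and peaks were called for each library (MACS2 2.1.0). The deposited values are fold enrichment over local background, a ratio, and a summit's −log10 p and −log10 q, which grow with depth. The depth reached is unknown, and the number of peaks limits precision.

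Summits of 1 interval were collapsed to the strongest, and peaks were merged across libraries when sharing 1 bp or more. Annotation was GENCODE vM21 and RefSeq GRCm38.p6, and the 5 hairpin sequences matched the genome at the annotated bases. Region counts were tested by exact permutation over libraries, two-sided, with Benjamini-Hochberg adjustment over all microRNA windows. Ranks were tested with limma 3.58.1 (R 4.3.3, trended eBayes, deposit set as covariate) over all 39310 shared regions, threshold 0.05. Single contrasts used their 2 genotypes in the count tests, whereas the rank fit used all 16 libraries.

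The members, lists, motifs and named regions were chosen with earlier results of these data known. Regions were named when nearest to a host start or hairpin, strongest in a window, gained, lost or called. Mir155 region 2, Mir142 region 2, Mir223 region 3, Mir196b region 3 and the regions of the looser definition were named after their values were seen. Same-numbered libraries deviated together over both deposit sets (r from 0.202 to 0.495 across regions, which are not replicates) but not within a set (-0.161 to 0.0723), so the numbers carry the deposit set. P-values measure the spread between pools of 2 mice. On simulated data for p300 loss with 39310 regions, the rank fit recovered 88% of 100 regions changed by 1.0 and 26% of 100 changed by 0.5, with 8.06% of calls false. Alternatives were q filters, the strongest 50000 peaks, summit windows, other rank scales, single deposit sets, a replicate block and leaving out each library. Python was used with pandas and matplotlib.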

Additional observations from a re-analysis of the deposited data

Results flagged for a closer look

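Of 60 sets of 4 libraries examined (5 region counts and 10 top shares in each genotype), 8 had 1 library whose gap to the nearest other exceeded Dixon's critical value as a share of the range at the 95% level. All 8 were whole-number region counts with 3 equal libraries, for which any departure takes the whole range, and chance flags about 1 in 20 sets. At Mir223, TET2KO replicate 2 had 3 regions beside 6 in the other libraries, and P300KO_TET2KO replicate 1 had 4 beside 6. At Mir155, P300KO replicate 1 and P300KO_TET2KO replicate 1 each had 4 beside 3. At Mir142, WT replicate 3 had 9 beside 10 and P300KO replicate 4 had 10 beside 9. At Mir146, TET2KO replicate 2 had 3 beside 4 and P300KO_TET2KO replicate 3 had 5 beside 4. No interaction of p300 and Tet2 loss was called at any member region.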

How the results depend on the processing

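The call at Mir146 region 2 for p300 loss kept its direction under every alternative run. It stayed past the threshold in limma when each library was left out in turn (-1.208 to -1.005, adjusted p from 0.000136 to 0.00204), with the replicate block (-1.10, adjusted p = 0.000685), by percentile points, by fold enrichment, among the strongest 50000 peaks and in deposit set 2 alone. It was lost without the deposit set covariate (0 member regions called), in deposit set 1 alone (0) and in the exact permutation test (0). In limma and the exact test these settings called 0 of all 39310 regions, with 2301, 2857 and 6281 at an unadjusted p under 0.05, and the exact test could call none. The exact tests of P300KO against WT, added after the data were seen, gave p = 0.0571 over 70 regroupings and p = 0.0556 within deposit set, the smallest the latter allows. In P300KO against WT, 0 member regions were called by percentile points, by fold enrichment, without the covariate or in set 1 alone, where limma called 0 up and 4 down, 3 up and 34 down, 0 and 0 of all regions (5171, 4606, 2053 and 4724 at an unadjusted p under 0.05). For p300 loss, 2 were called among the strongest 50000 peaks (318 up and 506 down of 28200 regions), 5 in set 2 alone (Mir223 region 3, Mir155 regions 2 and 3, Mir142 region 7 and Mir146 region 2, with 1127 up and 1847 down of all regions), and 1 to 2 when a library was left out, where Mir155 region 2 passed without WT replicate 1 (adjusted p = 0.0306) or TET2KO replicate 1 (adjusted p = 0.0431). P300KO_TET2KO against TET2KO called 2 in set 2 alone (218 up and 441 down of all regions). The replicate block changed no call at the members. Why these settings differ was not tested.

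Gained or lost regions numbered 2 in P300KO_TET2KO against TET2KO, 3 in P300KO against WT, 2 in TET2KO against WT and 1 in P300KO_TET2KO against P300KO under the looser definition, 3 or more libraries of one genotype and 1 or fewer of the other. The loss in P300KO was 0 among the strongest 50000 peaks, and 1 region was called in P300KO_TET2KO against TET2KO with at least 50% of a region covered. Leaving out a library gave 0 to 1 in TET2KO against WT (1 without TET2KO replicate 2) and 0 to 1 in P300KO_TET2KO against P300KO (1 without P300KO_TET2KO replicate 1), and kept 1 in P300KO against WT.

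No region count passed under any alternative, and of 350 values 14 changed sign. With the strongest 50000 peaks, P300KO_TET2KO against TET2KO gave -0.25 at Mir223, Mir142 and Mir146 and 0.25 at Mir155, and p300 loss gave -0.125 at Mir223 and 0.25 at Mir155. With 10 kb windows Mir223 gave -0.75 and -0.125 for these contrasts, and in set 2 alone p300 loss gave -0.25 at Mir223 and Mir196b. Leaving out a library gave -0.5 to 0.75 at Mir223 for P300KO_TET2KO against TET2KO, and for p300 loss -0.125 to 0.625 at Mir223 and -1.25 to 0.25 at Mir146, the last positive without WT replicate 1. Small p300 loss differences in rank also changed sign: Mir142 region 1 gave 0.071 percentile points and 0.075 in set 2 alone, and in set 1 alone Mir155 region 3 gave 0.049, Mir146 region 12 gave -0.0096 and Mir196b region 15 gave -0.037. Leaving out a library gave -0.17 to 0.16 at Mir142 region 1, -0.049 to 0.11 at Mir146 region 12 and -0.028 to 0.34 at Mir196b region 15.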
